A study of Mus musculus with 4 samples.

Results

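The 8 calcium/calmodulin-dependent kinase genes Camk2a, Camk2b, Camk2d, Camk2g, Camk4, Camkk1, Camkk2 and Camkv were followed through 2 lists of m6A peaks from mouse brain. They were chosen by name, with earlier results of these data known, as 8 of 21866 protein-coding genes with an annotated coding transcript. Every m6A peak that touched an exon of one of them by at least 1 bp was taken (exons of all GENCODE M21 transcripts, mm10). Polyadenylated RNA from whole brain of C57BL/6J mice aged 4 weeks and with the genotype Prrc2a flox/flox was fragmented and precipitated with an antibody against m6A. The series holds 4 samples, namely 2 immunoprecipitations (IP) and 2 inputs of the same genotype, strain and age, and no other condition was compared here. The labels name no Cre driver, and nothing in them says whether the replicates came from separate animals. Each IP has 1 peak list, and the inputs enter only through Enrichment, the linear ratio of IP over its own input at a peak.

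Calcium that enters a neuron binds calmodulin, and the complex switches on this group of kinases. Camk2a, Camk2b, Camk2d and Camk2g encode the alpha, beta, delta and gamma subunits of CaMKII, a multi-subunit enzyme in which each subunit has an N-terminal kinase domain, a regulatory segment, a linker of variable length and a C-terminal hub that joins the subunits. The alpha and beta subunits are abundant in forebrain neurons and act in synaptic plasticity. Camk2a mRNA is carried into dendrites, and its 3′ UTR holds the signals for that transport and for local translation. Camk4 encodes a largely nuclear kinase that phosphorylates CREB, Camkk1 and Camkk2 encode upstream kinases that activate CaMKI and CaMKIV (Camkk2 also AMPK), and Camkv encodes a kinase-like protein of synaptic vesicles and membranes that lacks kinase activity. m6A is written mostly at an adenosine inside a short consensus around GGAC, often in long internal exons and near stop codons, and an m6A peak marks a stretch of RNA of many bases and not a single base.

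The sites shown are those nearest the middle of the strongest shared peak of 6 genes, since the strongest peaks are the base of the comparison between genes. Each line gives 25 bases of the mm10 genome on the strand of the gene, 5′ to 3′, with the consensus letters in capitals. In Camk2b (chr11:5970449-5970473, minus strand), Camk2g (chr14:20736346-20736370, minus strand) and Camkk1 (chr11:73040897-73040921, plus strand) the site lay in the 3′ UTR, and in Camkk2 (chr5:122764119-122764143, minus strand) in coding exon 2. Camk2d (chr3:126842955-126842979, plus strand, 3′ UTR) and Camkv (chr9:107948225-107948249, plus strand, coding part of exon 11) had GGAC but no GGACT in their strongest shared peak.
Camk2b: ccggctgcctGGACTcgttgtgggt
Camk2g: ttctaggagtGGACTtcgtcagacc
Camkk1: gcagtcatctGGACTtgacattcat
Camkk2: ggcactgcggGGACTctcatcctta
Camk2d: tccagctaccGGACgggatgttcca
Camkv: tggcccagccGGACagcacagccct

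All 8 kinase genes carried m6A peaks in both replicates. Replicate 1 had 25 peaks over their exons and replicate 2 had 23, in lists of 38533 and 30134 peaks. Of all protein-coding genes, 54.3% had a replicate 1 peak over an exon and 49.4% a replicate 2 peak. A stretch covered in both replicates, called a shared interval below, was found in 45.4%, against 8 of 8 kinase genes. These percentages take in every annotated gene, whether or not it is expressed in brain, and expression was not examined here. Peaks that overlapped a peak of the other list by at least 1 bp numbered 20 of 25 in replicate 1 (80.0%, against 67.8% of all replicate 1 peaks over protein-coding exons) and 21 of 23 in replicate 2 (91.3%, against 76.8%). These gave 21 shared intervals. No peak of a kinase gene touched an exon of another gene. All 8 mRNAs known from dendrites that were looked up, among them Map2, Arc and Shank1, also had shared intervals. That list was chosen with earlier results of these data known, so it is no independent check of the brain label.

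The number of shared intervals differed between the genes when all deposited peaks were counted. Camk2a had 7 shared intervals and Camk2b 5, whereas Camk2d, Camk2g, Camk4 and Camkk1 had 1 each, Camkk2 had 3 and Camkv 2. With Enrichment of at least 2 in both replicates, Camk2a had 2, Camk2d 0 and each of the others 1. With RefSeq exons in place of GENCODE exons, Camk4 had 6. The median over all 9930 protein-coding genes with a matching pair of peaks was 2 shared intervals, and 96.9% of those genes had fewer than Camk2a and 90.6% fewer than Camk2b. Per length of exon, Camk2a had 0.938 shared intervals per kb, Camk2b 0.548, Camkv 0.531, Camk4 0.307, Camkk2 0.275, Camkk1 0.268, Camk2g 0.156 and Camk2d 0.0445, and the median gene had 0.398.

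**Figure D1:**
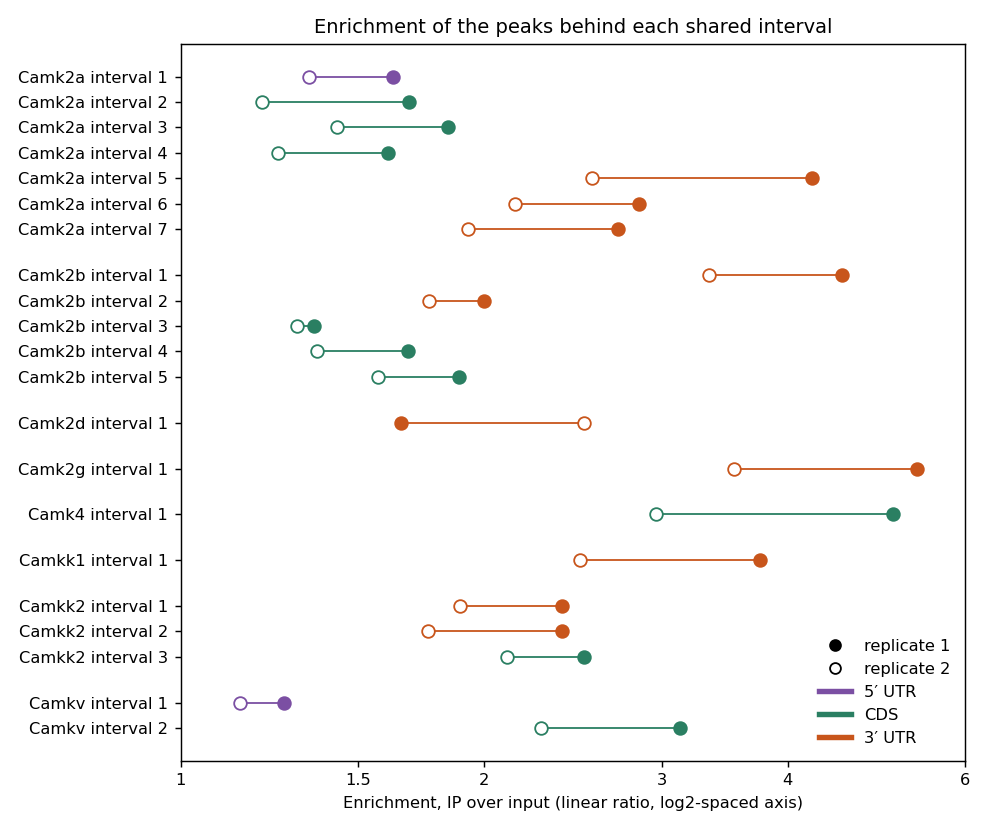
Enrichment (horizontal axis, linear ratio on a log2-spaced scale) of the replicate 1 peak (filled) and the replicate 2 peak (open) behind each of the 21 shared intervals, coloured by the mRNA region of the interval's midpoint. The intervals are numbered by position, and only the Camk2d interval was higher in replicate 2; intervals 1 and 2 of Camkk2 share 1 replicate 1 peak.

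Among the 20 best-matching pairs of kinase peaks, 19 had the larger Enrichment in replicate 1, as had 78.3% of all pairs over protein-coding exons. The median difference between the replicates was 0.36 on the log2 scale over the kinase pairs and 0.37 over all pairs (SD over pairs 0.47). The exception was the Camk2d pair, where replicate 2 was higher by 0.60. Since read counts were not analysed here, the depth behind each Enrichment value is unknown, and with 2 replicates an exact sign-flip permutation test could not go below p = 0.5, so no test was run on the differences that follow.

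Camk2a, on chromosome 18 from 60925618 to 60988152 on the plus strand (ENSMUSG00000024617.16), had its strongest signal in the 3′ UTR, and weaker peaks at the start codon and over a run of short coding exons. In the 3′ UTR of its principal transcript (the APPRIS choice in GENCODE, Camk2a-203), counted from the last base of the stop codon, shared intervals ran from 42 to 774 nt, from 1075 to 1577 nt and from 2624 to 3019 nt. The interval nearest the stop codon had an Enrichment of 4.23 in replicate 1 against 2.56 in replicate 2. The middle interval had 2.85 and 2.14, and the most distal 2.72 and 1.93. Both replicates thus had the same order, with the highest value next to the coding region. The interval over exon 1 covered the whole 5′ UTR and the start codon, with an Enrichment of 1.62 and 1.34.

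The coding peaks of Camk2a lay on neighbouring exons. Exon 12, of 43 nt, had an Enrichment of 1.68 in replicate 1 and 1.20 in replicate 2, exon 13, of 41 nt, 1.84 and 1.43, and exon 14, of 49 nt, 1.60 and 1.25. Exon 11, of 84 nt, had a peak in replicate 1 only, with 1.39. These values sat low in their lists, at or below the percentile of 14.9 in replicate 1 and of 7.64 in replicate 2.

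Camk2b, on chromosome 11 from 5969644 to 6066362 on the minus strand, resembled Camk2a in having strong 3′ UTR signal and weak peaks over short coding exons. Its strongest interval, from 750 to 1955 nt past the stop codon of Camk2b-209, had an Enrichment of 4.53 in replicate 1 and 3.35 in replicate 2 and was 1206 nt long. A second 3′ UTR interval from 102 to 382 nt had 2.00 and 1.76. Coding exon 17, of 49 nt, had 1.36 and 1.30, exon 16, of 45 nt, had 1.68 and 1.37, and the interval across exon 15 and the end of exon 14 had 1.89 and 1.57. No shared interval covered its 5′ UTR.

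Camk2g, on chromosome 14 from 20734875 to 20794088 on the minus strand, had a single shared interval, and it was the strongest of all 8 genes. It lay from 247 to 817 nt past the stop codon of Camk2g-201, with an Enrichment of 5.38 in replicate 1 and 3.54 in replicate 2. Replicate 1 alone had a further 3′ UTR peak of 1.95 and a peak of 1.27 over coding exon 17, of 49 nt. Camk2d, on chromosome 3 from 126596302 to 126846326 on the plus strand, had 1 peak in each replicate, from 159 to 400 nt past the stop codon of Camk2d-226 where they overlapped. Its Enrichment was 1.66 in replicate 1 and 2.51 in replicate 2, which placed it above 3.06% of genes with a pair in replicate 1 and above 41.8% in replicate 2.

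**Figure D2:**
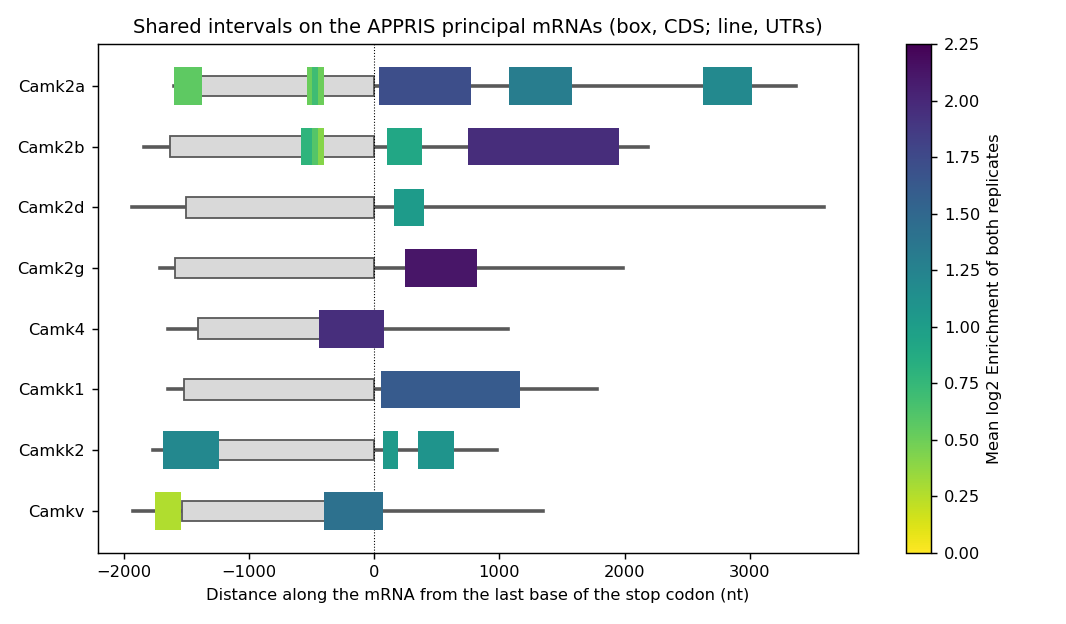
Shared intervals (coloured bars) on the APPRIS principal mRNA of each gene, by distance in nt from the last base of the stop codon (horizontal axis), with the CDS as a grey box and the UTRs as lines; colour gives the mean log2 Enrichment of both replicates. Camk2a and Camk2b show several intervals each and Camk2d a single one near the start of a 3′ UTR of 3591 nt.

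The dendritic Camk2a mRNA was compared with its paralogs in the number, strength and extent of peaks. Camk2a had 7 shared intervals against 7 in Camk2b, Camk2d and Camk2g together, and 2 against 2 with Enrichment of at least 2 in both replicates. On the log2 scale, the strongest pair of Camk2a minus the mean of the paralogs was 0.30 in replicate 1 and -0.28 in replicate 2, a mean of 0.01 ± 0.41 (SD, n = 2), so the sign differed between the replicates. Against single paralogs, Camk2a minus Camk2g was -0.35 in replicate 1 and -0.47 in replicate 2, and Camk2a minus Camk2b was -0.10 and -0.39. Camk2a minus Camk2d was 1.35 in replicate 1 and 0.03 in replicate 2.

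The share of the 3′ UTR under shared intervals depended on the transcript. On the principal transcripts, 48.4% of the 3372 nt of Camk2a were covered, 68.1% of the 2184 nt of Camk2b, 28.7% of the 1990 nt of Camk2g and 6.74% of the 3591 nt of Camk2d. On the transcripts with the longest CDS, the rule applied to every gene, the values were 76.0% of 1627 nt in Camk2a, 31.8% of 148 nt in Camk2b, 6.80% of 3560 nt in Camk2d and 0% of 238 nt in Camk2g, because these annotated transcripts of Camk2b and Camk2g end before their strong 3′ UTR peaks. The difference between Camk2a and the mean of its paralogs was 63.1 percentage points by the longest-CDS rule and 13.9 on the principal transcripts, and on the latter Camk2b was above Camk2a. Over the whole mRNA the difference was 43.7 and 19.6 percentage points, with 40.0% of the principal mRNA covered in Camk2a, 41.5% in Camk2b, 15.4% in Camk2g and 4.38% in Camk2d, so that Camk2b was again above Camk2a.

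In order of the mean log2 Enrichment of the strongest pair, Camk2g (2.13) was followed by Camk2b (1.96), Camk4 (1.96), Camk2a (1.72), Camkk1 (1.61), Camkv (1.42), Camkk2 (1.20) and Camk2d (1.03). The SD between the replicates was 0.18 to 0.55, and no gap between neighbours exceeded the larger SD of the pair. After the median log2 Enrichment of each list was subtracted, the gaps from Camk2g to Camk2b (0.16, larger SD 0.15), from Camkk1 to Camkv (0.20, larger SD 0.15) and from Camkv to Camkk2 (0.21, larger SD 0.09) exceeded it and the other 4 did not. Among the 9930 genes, Camk2g was above 86.2%, Camk2a above 53.5% and Camk2d above 10.7%.

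**Figure D3:**
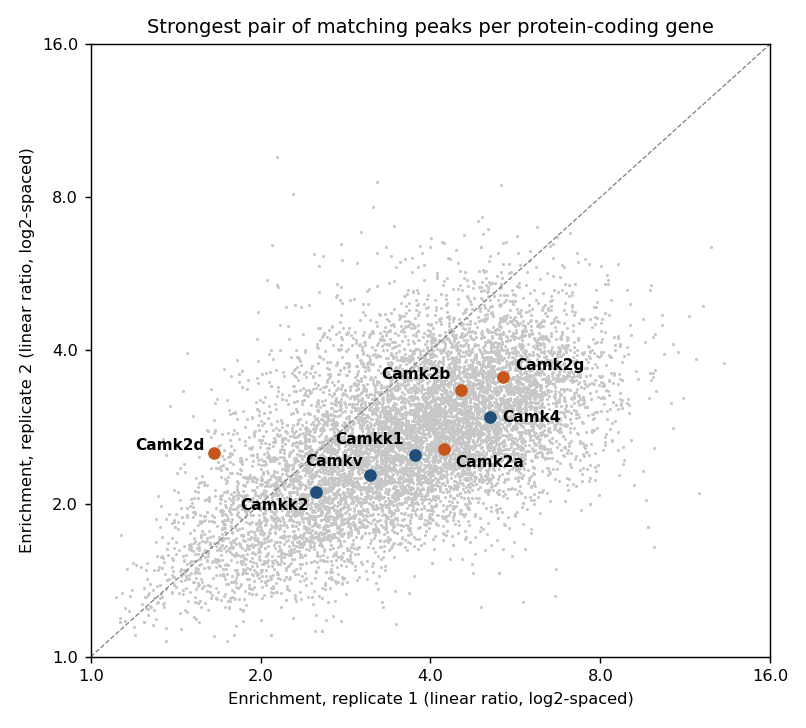
Enrichment of the strongest pair of matching peaks in replicate 1 (horizontal) and replicate 2 (vertical), both linear ratios on log2-spaced axes, for 9930 protein-coding genes (grey) with the CaMKII genes in orange and the other 4 kinase genes in blue; the dashed line marks equal values. The other kinase genes lie below the line with most genes, and only Camk2d lies above it at 1.66 and 2.51.

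A short coding exon was under a peak in 3 of the 4 CaMKII genes. Camk2b, Camk2d and Camk2g were 86.0%, 87.6% and 84.3% identical to Camk2a over the aligned residues of the principal isoforms. The 49-nt exon that encodes Camk2a residues 329 to 345 was under a peak in both replicates in Camk2a (exon 14) and Camk2b (exon 17), in replicate 1 only in Camk2g (exon 17), and under none in Camk2d (exon 14). In Camk2a, peaks covered residues 273 to 345, counting exon 11, and in Camk2b the peaks upstream of the 49-nt exon lay over a part of the linker that Camk2a mostly lacks. Apart from the first exon of Camk2a, no other coding exon of the 4 genes was under a peak.

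These coding peaks were of similar length and mostly reached beyond their exon on both sides. The 14 peaks over coding exons under 100 nt in Camk2a, Camk2b and Camk2g were 351 to 382 nt long with Enrichment from 1.20 to 1.89, and 12 of them were shared. Those over exon 14 of Camk2a, for instance, reached 151 nt beyond the exon on both sides in both replicates. The Camk2b peaks across exons 14 and 15 instead ended inside exon 14 on one side in both replicates. Camk2a has 14 coding exons under 110 nt, of which 4 were under a replicate 1 peak, against 4 of 17 in Camk2b, 1 of 17 in Camk2g and 0 of 15 in Camk2d. Peaks of the 8 genes with under 50% of their bases in exons numbered 7 in replicate 1 and 5 in replicate 2, all with Enrichment of 1.20 to 2.12. Such peaks made up 19.4% of replicate 1 and 15.4% of replicate 2 peaks over all protein-coding exons. Input coverage over these exons was not analysed here, and its part in the weak peaks was not tested.

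**Figure D4:**
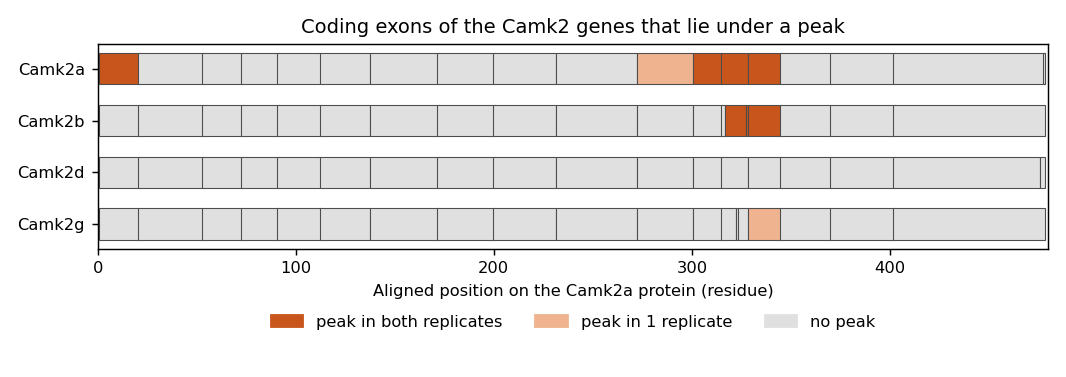
Coding exons of the CaMKII genes (boxes) by the Camk2a residues to which they align (horizontal axis), coloured by whether the coding bases were under a peak in both replicates, in 1 or in none. Apart from exon 1 of Camk2a, the peaks fall between residues 273 and 345, and Camk2d has none; residues without a Camk2a counterpart are not drawn.

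Camk4, on chromosome 18 from 32934931 to 33191228 on the plus strand, had 1 interval over GENCODE exons, and it was among the strongest. It ran from -439 to 79 nt relative to the last base of the stop codon, all in exon 11, with an Enrichment of 5.09 in replicate 1 and 2.96 in replicate 2. RefSeq extends this last exon by 9497 nt, to 11007 nt, and 5 more shared intervals lay on the extension. The strongest of them, from 10189 to 10563 nt past the stop codon, had 3.96 and 3.13 and ended 3 nt before the RefSeq end of the gene. The next in strength, from 2563 to 2952 nt, had 3.37 and 2.49. The remaining ones, between 8305 and 9775 nt, had 1.71 to 2.73 in replicate 1 and 1.80 to 1.92 in replicate 2.

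**Figure D5:**
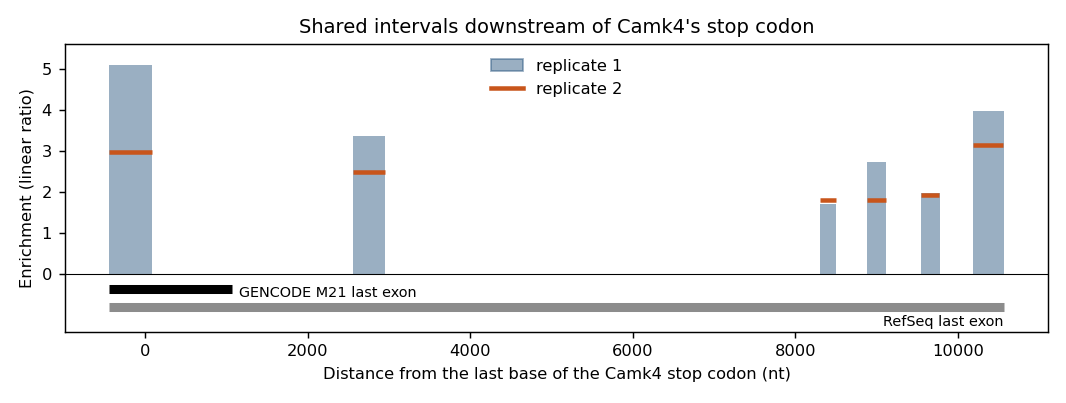
Enrichment (vertical axis, linear ratio) of the shared intervals on the last exon of Camk4 by distance in nt from the last base of the stop codon, with replicate 1 as bars and replicate 2 as orange lines. The GENCODE exon (black) holds the interval across the stop codon only, and the RefSeq exon (grey) holds that and 5 more.

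The upstream kinases differed in where their strongest shared intervals lay. Camkk1, on chromosome 11 from 73019008 to 73042073 on the plus strand, had 1 shared interval, which spanned the 3′ UTR from 51 to 1167 nt past the stop codon with an Enrichment of 3.76 in replicate 1 and 2.49 in replicate 2 and covered 62.8% of that UTR. Replicate 2 alone had a peak of 1.69 over exon 2 and the start codon. Camkk2, on chromosome 5 from 122731170 to 122779409 on the minus strand, had its strongest interval at the other end of the mRNA, over exon 2 and the start codon, with 2.51 and 2.11. In its 3′ UTR a replicate 1 peak of 2.39 met 2 replicate 2 peaks, of 1.89 (349 to 640 nt past the stop codon) and 1.76 (71 to 187 nt). The values over exon 2 were only slightly higher, so which Camkk2 interval was strongest rests on a small difference. Its peaks in 1 replicate were a 5′ UTR peak of 2.12 in replicate 1 and a peak of 1.35 in replicate 2 over an exon outside the principal transcript.

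Camkv, on chromosome 9 from 107935674 to 107949691 on the plus strand, resembled Camk4 in that its strongest interval crossed the stop codon, from -400 to 71 nt relative to its last base, with an Enrichment of 3.13 in replicate 1 and 2.28 in replicate 2. An interval in the 5′ UTR had 1.27 and 1.14, the weakest shared pair among the 8 genes. A 3′ UTR peak of 1.54 was found in replicate 1 only.

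By midpoint, 10 of the 21 shared intervals lay in a 3′ UTR, 9 in CDS and 2 in a 5′ UTR, on the principal transcript. On the longest-CDS transcripts, 6 of the 17 intervals that could be placed (35.3%) had their midpoint in the 3′ UTR, against 28.9% of the shared intervals of all genes placed by the same rule. The strongest pair lay in the 3′ UTR in 5 of the 8 genes, namely the CaMKII genes and Camkk1. No matching share of strongest pairs over all genes is given here, so whether 5 of 8 is many cannot be said. Midpoints within 200 nt of the stop codon were found for 3 of 17 intervals placed on the longest-CDS transcripts, against 22.9% of all intervals placed by the same rule. On the principal transcripts they were found for 3 of 21, and no share over all genes is given for that rule. Under both rules these were the intervals of Camk4 and Camkv that cross the stop codon and the 3′ UTR interval of Camkk2 nearest its stop codon.

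GGACT on the strand of the gene was present in 6 of the 21 intervals, taken with any intronic bases (28.6%, 95% Wilson interval 13.8 to 50.0%, for counting error only), against 43.1% of all placed intervals, which vary in length. The 43.1% covers only intervals placed on longest-CDS transcripts, as were 17 of the 21 here. The strongest intervals of Camk2b and Camk2g, which both held GGACT, were not among those 17. Among the 8 intervals with Enrichment of at least 2 in both replicates the share was 62.5%. The share of all placed intervals at that minimum is not given here, so 62.5% cannot be set against 43.1%. In 1 of the 6, over exon 14 of Camk2a, the matches were intronic, and 5 intervals held GGACT in exonic bases. GGAC, which includes GGACT, was in 16 intervals (76.2%), and in 14 of them in exonic bases. The GGAC share of all placed intervals is not given here, so whether 76.2% is high cannot be said. Counted over exonic bases only, the genes differed in where their GGACT places lay. None of the 6 in Camk2a exons and none of the 8 in Camk2d exons was inside a shared interval. In Camk2g 4 of 6 were inside, in Camkk1 3 of 4 and in Camk2b 3 of 11. In Camk4 1 of 4 was inside and in Camkk2 1 of 15, and Camkv exons had no such place. The place in coding exon 11 of Camk2a lay under the peak seen in replicate 1 only. Over all 8 genes, 12 of 54 exonic places were inside intervals, at 1.54 per kb inside and 0.708 per kb outside. The rate over all placed intervals was 1.53 per kb, but it takes in any intronic bases and is not the same measure. By gene, the inside rate was the higher in Camk2b, Camk2g, Camk4 and Camkk1. It was the lower in Camk2a (0 against 1.13 per kb), Camkk2 (1.17 against 1.39) and Camk2d (0 against 0.36). Camk2d alone supplied 22251 of the 59357 exon bases outside intervals. A match is a string of letters and not a measured site.

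The other genes of the pathway were read from fixed lists, which were also chosen with earlier results of these data known. Of 38 such genes, 32 had a replicate 1 peak, 32 a replicate 2 peak, 30 a peak in both and 30 a shared interval. Of all protein-coding genes, expressed in brain or not, 45.4% had a shared interval. The median of the strongest pairs of the listed genes was 3.81 in replicate 1 and 2.44 in replicate 2 (3.72 and 2.68 over all genes with a pair). Calmodulin and its buffers had shared intervals in 6 of 6 genes, among them Calm2 with 4.55 and 2.44 and Nrgn, the postsynaptic calmodulin-binding neurogranin, with 3.26 and 2.16. Both CaMKII inhibitor genes had them, Camk2n1 at 3.88 and 2.20 and Camk2n2 at 1.91 and 1.49. The phosphatases that act on CaM kinases, Ppm1e (5.77 and 2.74) and Ppm1f (6.36 and 3.31), both exceeded Camk2g in replicate 1 and fell below it in replicate 2.

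Other CaM kinase genes had shared intervals in 9 of 14 cases, and by the mean log2 Enrichment of both replicates these ran from Camk1 at 1.61 and 1.23 to Dapk1 at 6.78 and 3.65. Calcineurin genes had them in 2 of 4 and genes of CaM kinase substrates and targets in 9 of 10. Creb1, the transcription factor phosphorylated by CaMKIV, had 3.44 in replicate 1 and 7.02 in replicate 2, so its replicates lay far apart. Grin2b, the NMDA receptor subunit that binds CaMKII, had 7 shared intervals, as many as Camk2a. Per kb of exon it had 0.282, against 0.938 in Camk2a. Among the dendritic mRNAs the number ran from 1 in Arc, Actb and Bdnf to 10 in Map2, and the median strongest pair was 4.72 in replicate 1 and 2.60 in replicate 2, against 4.23 and 2.56 in Camk2a.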

How the data were processed

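m6A-seq peak lists of 2 IP replicates from mouse brain were used. The inputs have no file of their own here. According to the methods and the submitters' processing notes, the authors trimmed and filtered reads, aligned them to mm10 with TopHat, kept unique alignments and called peaks with MACS2 for each IP against its own input, on genome positions, without pooling replicates. The deposited Enrichment is a linear fold (ratio) of IP over input, and the deposited peak ends are genome positions, read with both ends counted. The lists give no strand, summit, p-value or read count, so depth is unknown and counting precision cannot be given.

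Peaks were overlapped with GENCODE M21 exons (Python 3.11.15, checked with bedtools 2.31.1 and on simulated peaks). A shared interval is the stretch common to a peak of each list, with at least 1 bp in common. Positions were read on the APPRIS principal transcript with the longest mRNA and, for shares over all genes, on the transcript with the longest CDS. Sequences came from the GRCm38.p6 genome with pysam 0.24.0. Proteins translated from the transcripts were aligned globally with biopython 1.88 (BLOSUM62). Named genes were the 8 kinases and fixed lists. The values of 1 listed gene are not reported here. Members and lists were chosen with earlier results of these data known. Alternatives covered the overlap, Enrichment minimum, exon set, transcript, stop codon window, motif and each replicate alone. No test between groups was made, since only 1 condition was analysed.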

Additional observations from a re-analysis of the deposited data

Results flagged for a closer look

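Peaks outside the GENCODE M21 exons were not part of the comparisons, and in 2 kinase genes such peaks were found in both replicates. Camk2b had 3 shared replicate 1 peaks inside an intron of 10272 nt on chromosome 11, where the bases common to both replicates ran from 6008248 to 6008503, from 6009132 to 6009685 and from 6010124 to 6010383. Their Enrichment was 4.21 in replicate 1 and 2.43 in replicate 2, 4.69 and 2.47, and 2.94 and 1.94. The second of them exceeded the strongest exonic Camk2b peak in replicate 1 (4.53) and fell below it in replicate 2 (3.35). They lay outside RefSeq exons too, at least 1281 nt from the next GENCODE exon, and held no GGACT on the strand of Camk2b. The same intron held a peak of 3.22 in replicate 1 only and a peak of 1.59 in replicate 2 only. The lists give no strand, so the strand these peaks came from is unknown.

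Camk4 had 5 shared replicate 1 peaks outside its GENCODE exons, between positions 33187764 and 33195764 of chromosome 18. All of their bases lay in the last exon that RefSeq annotates. With RefSeq exons Camk4 had 6 shared intervals, and the other 7 genes had as many as with GENCODE exons.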

How the results depend on the processing

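Of 63 alternative values, 3 changed sign, 20 moved and 40 did neither, that is, they stayed within 1.5 times (counts), 1 SD between replicates (differences) or the Wilson interval (shares). With Enrichment of at least 2 in both lists, peaks over the kinase exons fell from 25 to 11 in replicate 1 and from 23 to 9 in replicate 2, shared peaks from 20 and 21 to 8 and 8, and shared intervals from 7 to 2 in Camk2a and from 7 to 2 in its paralogs. The GGACT share then rose from 28.6% to 62.5% of the 8 intervals left. With at least 50% of an interval in exons, chosen after seeing the data, Camk2a had 5 shared intervals and the paralogs together 4. The Camk2a excess in 3′ UTR coverage was 63.1 percentage points, 13.9 on APPRIS transcripts, 12.1 over the 3′ UTRs of all coding transcripts (chosen after seeing the data), 76.0 with Enrichment of at least 2, and 50.9 to 64.0 in single replicates. In mRNA coverage it was 43.7, 19.6 on APPRIS transcripts, 38.1 with Enrichment of at least 2, and 45.9 to 47.1 in single replicates. The difference of 0.01 in strongest log2 Enrichment was -0.44 over all shared peaks and -0.33 without Camk2d (chosen after seeing the data), and ran from -0.28 without replicate 1 to 0.30 without replicate 2. Near the stop codon, 1, 5 and 7 intervals were counted with windows of 100 and 400 nt and with any base in the window, against 3. GGAC in place of GGACT gave 76.2%. The coverage differences used longest-CDS transcripts unless stated otherwise, and those of Camk2b and Camk2g end before their strong 3′ UTR peaks. Apart from this choice of transcript, the cause of the changes was not tested. With RefSeq exons (chosen after seeing the data) the counts were 30 and 28 peaks. No paired analysis was possible because the labels pair each IP with an input, and the inputs have no values of their own here; differences between genes were taken within each replicate.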
